A study of Mus musculus with 8 samples.

Results

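Loss of Mex3a was examined in the early polysomes of the mouse main olfactory epithelium, by setting the 2 libraries titled as Mex3a conditional knockout (cKO) against the 2 titled as wild type (WT). These are 4 of the 8 libraries of the series, chosen by their titles. The other 4 are late polysomes of both genotypes. WT mice were Mex3a flox/flox or Mex3a flox/+ and had no Cre, and cKO mice were Mex3a flox/flox with Cre, so floxed alleles were present in both groups. All tissue was treated at dissection with cycloheximide (spelled Cyclohexamide in the labels) at 100 µg/mL in PBS, a drug that holds ribosomes on the mRNAs they are translating. Lysates were spun in sucrose gradients of about 42 fractions, and 50 µL of each of fractions 27 to 34 was pooled as early polysomes. Fractions 35 to 42, which lie deeper, were the late polysomes. The labels give no age or sex and do not say whether a library is 1 mouse or a pool, so that p-values below measure the spread between libraries, which may be technical. The design text of the series describes sorted cells with HyperTRIBE transgenes, which the labels of these libraries do not list.

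WT replicate 2 needs a caution before any value. Its title and library name call it WT, while its genotype entry is that of a cKO mouse. It is treated here by its title. Called genes apart from the microRNA entries, most other genes named for their p and several list counts are also given without WT replicate 2.

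MEX3A belongs to a family of RNA-binding proteins that hold RNA through KH domains and carry a RING finger, the mark of many ubiquitin ligases. The gene is known from stem and progenitor cells of several tissues. In the olfactory epithelium, basal stem cells divide throughout life to make neuronal precursors, which mature into olfactory sensory neurons that each settle on a single odorant receptor gene. Supporting (sustentacular) cells, Bowman's glands and immune cells surround them. Heavier polysomes carry more ribosomes per mRNA, and the early pool holds mRNAs that are short or carry fewer ribosomes. A level in this pool depends on how much of the mRNA the tissue holds and on how much of it lies in these fractions. In such bulk samples, fewer cells of a type and less RNA per cell cannot be told apart.

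Levels are the authors' transcripts per 1000000 (TPM), which allow for transcript length. Where 4 values follow a gene, they are deposited TPM in the order WT replicate 1, WT replicate 2, cKO replicate 1 and cKO replicate 2. Log2 changes are cKO minus WT on log2(scaled TPM + 1), from limma fitted over 16097 genes and all 8 libraries. Tests are two-sided, and a gene was called at a Benjamini-Hochberg adjusted p under 0.05. Depth inferred from the steps between TPM values was 10286773 to 12109016 reads per early library. The correlation of the 2 early replicates over genes was 0.984 for WT and 0.981 for cKO.

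Of the 16097 genes tested, 7 were called in early polysomes (0.0435%), 3 higher and 4 lower in cKO. Mex3a, the neurofilament gene Nefl, the urinary protein gene Mup4 and 5430401F13Rik rested on at least 13 reads in each early library, and the other 3 calls were microRNA entries on 0 to 5 reads per library. At an unadjusted p under 0.05, 517 genes were higher (3.21%) and 550 were lower (3.42%). This balance depended on the scaling, with 294 higher and 852 lower for TPM as deposited, where the median change was -0.047, and 475 higher and 807 lower without cKO replicate 1. The 2 libraries of each genotype did not overlap, with cKO above WT, in 3155 genes (19.6%), and with cKO below WT in 2821 (17.5%). The median change over all genes was 0.0059. Of the 2036 genes at 100 TPM or more in WT, 3 were called and 3 lay beyond 2-fold. An alternative test on inferred whole reads (voom in limma) called 12 of 16085 genes (0.0746%), 4 higher and 8 lower, and shared 4 calls with the test on TPM.

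**Figure D1:**
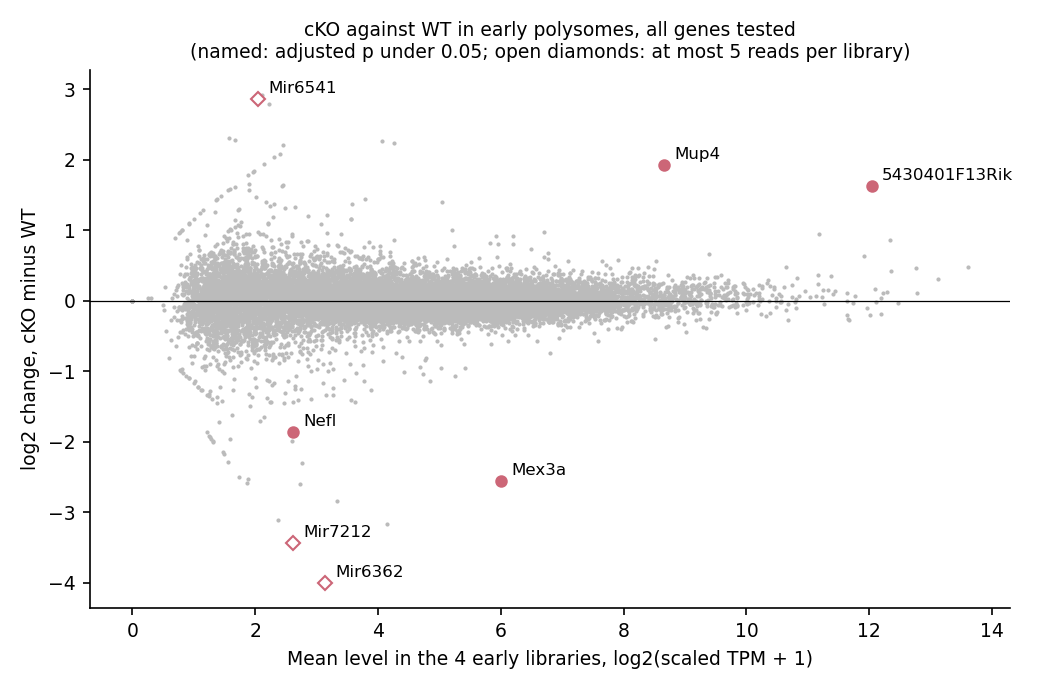
Change of each tested gene against its level. The x axis is the mean log2(scaled TPM + 1) of the 4 early libraries and the y axis the log2 change, cKO minus WT. Grey points are the 16097 genes tested, filled circles the called genes Mex3a, Nefl, Mup4 and 5430401F13Rik, and open diamonds the called microRNA entries, which have at most 5 reads in any early library.

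The sequences of the microRNA entries are shown because these short genes make up 3 of the 7 calls. They are from RefSeq on GRCm38.p6, which matched all 3 names, and are printed in lower case with the mature microRNA in capitals where the table gives one. Mir6362 lies at chr16:22605326-22605432 (plus strand), across from Dgkg on the other strand. Mir6541 lies at chr14:62865542-62865651 (plus strand) within Wdfy2, and Mir7212 at chr15:25948227-25948287 (plus strand) within Retreg1.
Mir6362 hairpin: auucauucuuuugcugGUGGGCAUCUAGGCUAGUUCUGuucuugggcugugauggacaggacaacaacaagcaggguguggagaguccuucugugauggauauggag
Mir6541 hairpin: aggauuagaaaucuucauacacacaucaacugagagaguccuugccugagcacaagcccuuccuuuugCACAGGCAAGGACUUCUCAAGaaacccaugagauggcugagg
Mir7212 hairpin: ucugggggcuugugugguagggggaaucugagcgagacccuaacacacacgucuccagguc
With the seed (bases 2 to 8) alone in capitals, the mature forms differ in seed.
mmu-miR-6362: gUGGGCAUcuaggcuaguucug
mmu-miR-6541: cACAGGCAaggacuucucaag

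These entries are 61 to 110 bases long, so a single read weighs heavily in TPM. In WT replicate 1, 1 read in Mir6362 was worth 3.82 TPM. Mir6362 had 5 and 3 reads in WT and 0 and 0 in cKO. Mir7212 had 4 and 2 reads in WT and 0 and 0 in cKO. Mir6541 had 0 and 0 reads in WT and 1 and 1 in cKO. The whole-read test called none of the 3 (adjusted p = 0.423, 0.531 and 0.724), and no fold is given. The libraries hold fragments of total RNA, and whether a read came from a hairpin or from the gene it lies in or across from was not tested.

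Mex3a itself, on chromosome 3 at 88532395 to 88541396 (plus strand, GRCm38), checks the titles. It stood at 97.4, 116, 13.9 and 19.8 TPM, on 2728, 3208, 381 and 502 reads. Both WT libraries were far above both cKO libraries, and WT replicate 2, with the conflicting genotype entry, was the highest of the 4. The scaled mean was 108 ± 14.0 for WT and 17.8 ± 4.70 for cKO libraries (SD, n = 2 each), so 16.5% of the WT level remained. Mex3a fell by 2.55 on the log2 scale (SE 0.18, limma adjusted p = 0.00459). Without WT replicate 2 the change was -2.43 (adjusted p = 0.0489), and without WT replicate 1 it was -2.68, no longer past the threshold (adjusted p = 0.0791). The labels do not say which part of the gene is floxed.

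The 3 paralogs of Mex3a, which share its domain layout, were all higher in cKO than in WT, and none passed the adjusted threshold. Mex3c, on chromosome 18, was at 79.7, 89.1, 116 and 130 TPM. Its change was 0.59 (SE 0.10, unadjusted p = 0.00041, limma adjusted p = 0.231), and 0.68 without WT replicate 2. Mex3b, on chromosome 7, was at 32.7, 33.9, 44.6 and 44.6 TPM, with a change of 0.47 (SE 0.10, unadjusted p = 0.00166, adjusted p = 0.461), and 0.50 without WT replicate 2. Mex3d, on chromosome 10, was at 38.2, 42.0, 42.7 and 46.4 TPM, a change of 0.20 (unadjusted p = 0.137), and 0.28 without WT replicate 2. For each paralog both cKO libraries lay above both WT libraries, for Mex3d by a narrow margin. In WT early polysomes Mex3a and Mex3c had the highest TPM of the family, while in cKO Mex3a had the lowest. The summed TPM of the 4 genes was 248, 281, 217 and 240.

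**Figure D2:**
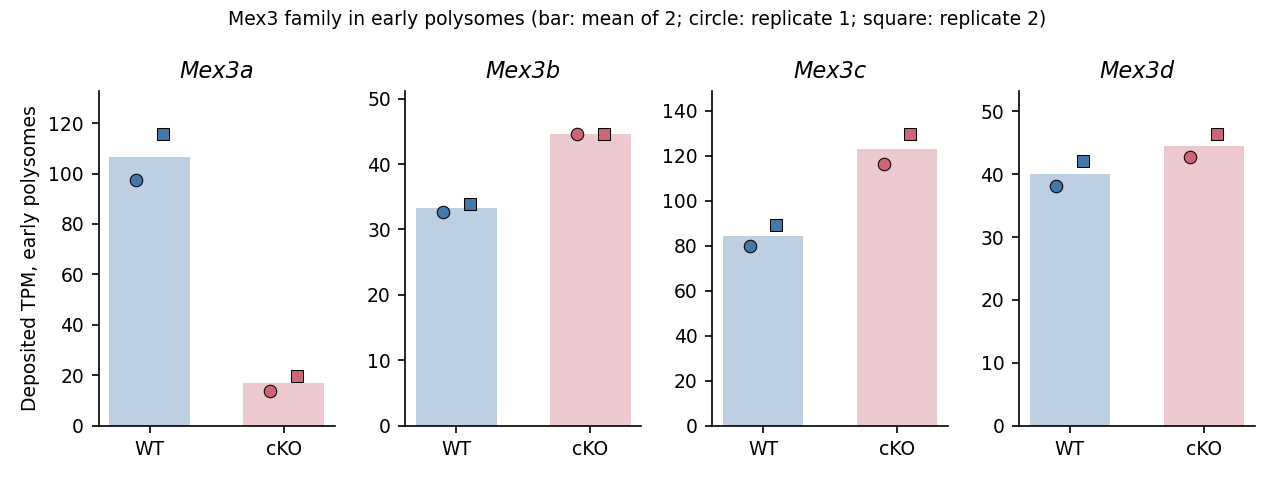
Deposited TPM of Mex3a, Mex3b, Mex3c and Mex3d in the 4 early libraries, each panel with its own axis from 0. Bars are means of 2 libraries, circles replicate 1 and squares replicate 2. Mex3a is at 97.4 and 116 in WT and at 13.9 and 19.8 in cKO, and the cKO points of the other 3 genes lie above their WT points.

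The higher genes included 2 secreted lipocalins, small carrier proteins of the nose that bind odorants and pheromones. Mup4, a major urinary protein on chromosome 4 at 59956804 to 59960710, was at 170, 155, 492 and 720 TPM. Both cKO libraries were above both WT libraries, and it rose by 1.92 (SE 0.20, limma adjusted p = 0.0329), or 3.89-fold on scaled means. Without WT replicate 2 the change was 1.87 (adjusted p = 0.337). Of its 50-base windows, 12.4% also occur in other Mup genes, so part of its reads could belong to those. Lcn11, on chromosome 2, was at 1614, 1485, 2921 and 2852 TPM. Its change was 0.96 (SE 0.13, adjusted p = 0.0903), and it passed in the test on whole reads (adjusted p = 0.000659). Its change was 0.90 without WT replicate 2 (adjusted p = 0.637). Of 9 lipocalins tested, these 2 were higher at an unadjusted p under 0.05 (22.2%, beside 3.21% of all genes) and the other 7 did not pass. Obp2a, an odorant binding protein and the most abundant of the list, was at 4786, 3937, 3634 and 3613 TPM, a change of -0.20 (unadjusted p = 0.287). Mup5 was at 270, 438, 380 and 321 TPM, with overlapping genotypes. The median of the 9 lipocalins was 0.078, so that the 2 high members were not matched by the rest.

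5430401F13Rik, a protein-coding gene on chromosome 6 at 131486400 to 131553763, had the highest level of the called genes. It was at 2031, 1976, 5241 and 6806 TPM and rose by 1.63 (SE 0.19, limma adjusted p = 0.0461). The call was lost without WT replicate 2 (1.62, adjusted p = 0.380). Of its 50-base windows, 79.2% are shared with Gm6619 and Gm16571, and which of the 3 genes the reads came from cannot be told apart here. Over 20 settings of the analysis, the one reported included, Mex3a passed in 18, Mup4 in 12, Nefl in 10 and 5430401F13Rik in 6, each with its direction kept.

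The next genes by p, none past the adjusted threshold on TPM, were of mixed function. Necab1, which encodes a neuronal calcium-binding protein with EF hands, was at 12.1, 12.6, 23.2 and 21.8 TPM. Its change was 0.87 (SE 0.11, adjusted p = 0.0617), and it passed in the test on whole reads (adjusted p = 0.0091). Egln3, a prolyl hydroxylase of the hypoxia response, was at 8.79, 9.26, 15.1 and 15.8 TPM, a change of 0.77. Stmn4, a stathmin that acts on microtubules in young neurons, was at 180, 196, 276 and 267 TPM, a change of 0.59. Ltbr, the lymphotoxin beta receptor, was at 52.7, 47.5, 67.3 and 69.6 TPM, a change of 0.50. That the genotypes do not overlap in these genes was a condition of their choice. The 4 changes without WT replicate 2 were 0.91 for Necab1, 0.81 for Egln3, 0.65 for Stmn4 and 0.43 for Ltbr, with adjusted p from 0.380 to 0.756.

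Tnnc2, the troponin C of fast skeletal muscle, had 2, 4, 33 and 16 reads. The ratio of its reads per library depth was 8.94, with a 95% interval of 3.83 to 25.5 that covers counting error only. It lies across from Ube2c, a mitotic gene on the other strand, at 95.9, 99.3, 127 and 118 TPM with a change of 0.38 (unadjusted p = 0.0280). The library kit keeps strand, but whether counting used it is not given in the sources used here. Of 6 skeletal muscle genes tested, a list added after values were seen, Tnnc2 alone had an unadjusted p under 0.05, and the list's summed TPM was 19.6, 21.5, 44.3 and 26.1. The part of muscle tissue in this result was not tested.

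Nefl, the light chain of neurofilaments, was the other lower call, beside Mex3a and the microRNA entries. It lies on chromosome 14 at 68083863 to 68089095 and stood at 8.76, 8.32, 1.68 and 1.48 TPM, on 85, 80, 16 and 13 reads. It fell by 1.86 (SE 0.20, limma adjusted p = 0.0329), which left 19.3% of the WT mean. Without WT replicate 2 the change was -1.89 (adjusted p = 0.337), and with a replicate block the call was lost (adjusted p = 0.0677). Nefm, which the annotation places across from it on the other strand, was at 1.98, 0.838, 0.911 and 0.776 TPM, with overlapping genotypes. Among the other neuronal intermediate filament genes, Ina was at 36.2, 51.9, 29.1 and 30.7 TPM, a change of -0.47 (unadjusted p = 0.0278). Prph, peripherin, went the other way at 60.9, 60.6, 73.4 and 71.8 TPM, a change of 0.31 (unadjusted p = 0.0180).

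Other lower genes passed only in the test on whole reads or in neither test. Chgb, chromogranin B, a protein of dense core secretory vesicles, was at 36.1, 28.5, 16.9 and 14.3 TPM. Its change was -0.94 (SE 0.14, adjusted p = 0.137 on TPM and 0.0375 on whole reads). Map7d2, a microtubule-associated protein gene on chromosome X, was at 25.7, 25.0, 13.3 and 14.0 TPM, a change of -0.79 (adjusted p = 0.0903 on TPM and 0.0249 on whole reads). The noncoding RNA 4932412D23Rik was at 11.1, 10.8, 4.32 and 5.39 TPM, a change of -0.99 (adjusted p = 0.207 on TPM and 0.0241 on whole reads). Hs6st3, a heparan sulfate sulfotransferase, was at 8.21, 7.35, 2.59 and 2.55 TPM, and Cdh4, a cadherin of neuronal adhesion, was at 15.2, 15.8, 8.98 and 9.09 TPM. Both passed in neither test. Sbpl was at 17.0, 22.3, 6.72 and 7.80 TPM, with 39% of its windows shared with Sbp. Except for 4932412D23Rik, genotypes that do not overlap were a condition of their choice. The changes without WT replicate 2 were -1.10 for Chgb, -0.81 for Map7d2, -1.01 for 4932412D23Rik, -1.32 for Hs6st3, -0.64 for Cdh4 and -1.07 for Sbpl, with adjusted p from 0.337 to 0.756.

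**Figure D3:**
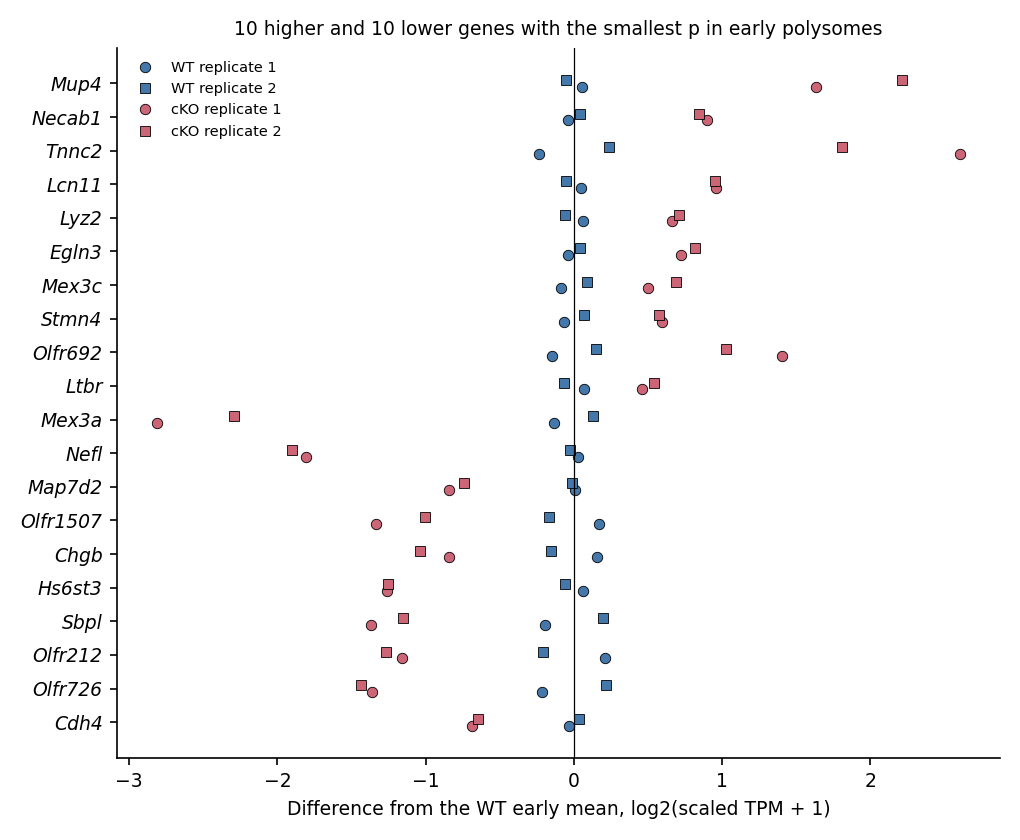
The 10 higher and 10 lower genes with the smallest unadjusted p among genes with a mean of at least 10 reads, a scaled TPM of at least 5 in a genotype, libraries that do not overlap and a symbol that is not a placeholder (a Rik clone name, Gm and digits, or a date), which leaves out 5430401F13Rik and 4932412D23Rik. The x axis is each library's difference from the WT early mean on log2(scaled TPM + 1). Blue is WT and red cKO, with circles for replicate 1 and squares for replicate 2. Mex3a, Nefl and Mup4 are the called genes shown, and Tnnc2 rests on 2 and 4 reads in WT.

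Many genes of neurosecretion were lower in cKO. The gene lists were chosen with earlier results of these data known, so a list's share beside that of all genes is not an independent test. Of 10 granin and dense core vesicle genes tested, 0 were higher and 5 were lower (50%) at an unadjusted p under 0.05, beside 3.42% of all genes lower. All 10 changes were below 0, with a median of -0.37 against 0.0059 over all genes. Besides Chgb, the lower members were Pcsk1n (12.6, 10.6, 4.89 and 5.61 TPM, change -0.96), an inhibitor of a prohormone convertase, and Scg3 (87.7, 82.7, 66.8 and 56.7 TPM, change -0.41), a secretogranin. Scg5, a chaperone of another convertase, had a change of -0.34, and Cpe, a carboxypeptidase that trims prohormones, of -0.30. Chga, the most abundant at 622, 585, 621 and 505 TPM, had overlapping genotypes. None passed the adjusted threshold on TPM, where Chgb did with a replicate block (adjusted p = 0.0408). The count lower was 4 to 6 when each early library was left out in turn. The list's summed TPM was 1448, 1413, 1266 and 1103.

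Presynaptic genes behaved alike in direction. Of 20 tested, all 20 changes were below 0, 8 at an unadjusted p under 0.05 (40%, beside 3.42% of all genes lower), and 0 passed the adjusted threshold. The genotypes did not overlap in 13, with cKO below WT, beside 17.5% of all genes. The median change was -0.21. Syt4, a synaptotagmin of secretory vesicles, was at 14.3, 13.3, 8.35 and 8.0 TPM (change -0.64), and Syt1 at 106, 110, 84.2 and 81.2 TPM (change -0.32). Syn2, Cplx1, Rab3a and Sv2a were also among the 8. Cplx1 was at 15.6, 7.31, 6.14 and 1.87 TPM, uneven within each genotype. Snap25 and Vamp2, core parts of the fusion machinery, had overlapping genotypes at changes of -0.01 and -0.07. The count of 8 was 5 without WT replicate 2, 4 without WT replicate 1, 6 without cKO replicate 1 and 5 without cKO replicate 2.

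Markers of olfactory bulb and brain, tissue that borders the epithelium, are given beside these neuronal genes. Of 14 tested, 1 was lower at an unadjusted p under 0.05 (7.14%, beside 3.42% of all genes), and the median change was -0.20. Of the 14, 11 changes were below 0 and 3 above. The genotypes did not overlap in 6 with cKO below WT (42.9%, beside 17.5% of all genes) and in 1 with cKO above. The median was -0.042 among members above a mean TPM of 5, with 0 lower, and 0 were lower without WT replicate 1 and 3 without WT replicate 2. Doc2g was at 6.35, 2.83, 0.753 and 0.979 TPM, a change of -1.49 (unadjusted p = 0.0121). Gad1, an enzyme of GABA synthesis, was at 4.09, 1.61, 1.56 and 0.564 TPM, and Eomes was at 5.61, 5.55, 4.30 and 3.44 TPM. The list's summed TPM was 1812, 1795, 1638 and 1505, most of it Calb2 (1396, 1383, 1236 and 1127 TPM), and WT replicate 1 held the highest Doc2g and Gad1. Of 8 bulb projection neuron markers, a list added after values were seen, 6 changes were below 0 and 2 above, with a median of -0.15. The genotypes did not overlap in 3 of these 8 with cKO below WT (37.5%, beside 17.5% of all genes) and in 0 with cKO above. The part of bulb tissue in the lower Nefl, granin and presynaptic genes was not tested.

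Few markers of the olfactory neurons themselves had a small p. Of 19 mature neuron markers, 0 were higher and 1 was lower (5.26%, beside 3.42% of all genes) at an unadjusted p under 0.05, with a median of -0.07. The lower one was Ric8b, a chaperone of the olfactory G protein, at 263, 277, 226 and 222 TPM. Stoml3, a membrane protein of olfactory cilia, was at 3222, 3539, 3361 and 3018 TPM, with overlapping genotypes. Of 18 genes of odorant signal transduction, 0 were higher and 2 lower (11.1%), with a median of -0.07. Of the 18, 16 changes were below 0, and the genotypes did not overlap in 8 with cKO below WT (44.4%, beside 17.5% of all genes). The 2 lower became 0 without either WT replicate or without cKO replicate 2. Of 20 immature neuron markers, 1 was higher (Stmn4) and 3 were lower (15%), among them the microtubule genes Dcx (127, 149, 98.0 and 112 TPM) and Crmp1 (70.4, 74.5, 60.2 and 54.0 TPM). Without WT replicate 2 the last count was 1 higher and 0 lower, and without either cKO replicate it was 1 and 1. Of 22 axon guidance and sorting genes, 1 was higher and 3 lower (13.6%), with Sema7a at 64.2, 67.0, 98.2 and 74.0 TPM and Ncam2 at 72.9, 61.1, 51.0 and 34.0 TPM. The 3 lower became 0 without WT replicate 1 or cKO replicate 2, 5 without WT replicate 2 and 6 without cKO replicate 1.

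Genes of progenitors, the cells from which Mex3a is best known, had few members with a small p. Of 21 globose basal and neurogenic factors, 1 was higher (4.76%, beside 3.21% of all genes) and 0 were lower, with a median of 0.10. With TPM as deposited these counts were 0 and 1. Of the 21, 16 changes were above 0, and the genotypes did not overlap in 9 with cKO above WT (42.9%, beside 19.6%). The higher one was Neurog1, the proneural factor of olfactory precursors, at 22.8, 27.0, 28.6 and 29.8 TPM (change 0.28, unadjusted p = 0.0362). Of 40 cell cycle genes, 2 were higher (5%) and 0 lower, Ube2c and Cdc20, both of the anaphase-promoting pathway, and the median was 0.016. The 2 higher became 0 with TPM as deposited, without a mean-variance trend, without WT replicate 2 and without either cKO replicate. None of 14 horizontal basal cell markers had an unadjusted p under 0.05. Of 20 sustentacular markers, 1 was higher (5%), Hes1, at 33.1, 36.4, 38.4 and 42.9 TPM, and 0 were lower. Their median of -0.051 became -0.37 without cKO replicate 1 and 0.23 without cKO replicate 2. The summed TPM of the sustentacular markers was 11285, 9764, 11533 and 9076, so that replicate 1 was above replicate 2 in both genotypes. The same held for horizontal basal markers, at 257, 204, 258 and 193.

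Olfactory receptor genes went in both directions. Of 824 tested, 50 were higher (6.07%, beside 3.21% of all genes) and 60 were lower (7.28%, beside 3.42%) at an unadjusted p under 0.05. With TPM as deposited 32 were higher and 69 lower. The genotypes did not overlap in 201 with cKO above and 193 with cKO below WT, beside 19.6% and 17.5% of all genes. The median change was 0.015, and -0.024 with TPM as deposited. These counts turned on single libraries, with 56 higher and 30 lower without WT replicate 2, 16 higher and 57 lower without WT replicate 1, and 15 higher and 50 lower without cKO replicate 2. Receptor mRNAs were rare, at a median level of 2.54 scaled TPM against 21.6 over all genes.

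Single receptors nonetheless differed by several fold, and 3 passed in the test on whole reads, all lower. Olfr287, on chromosome 15, had 47, 42, 2 and 3 reads. The ratio of its WT to cKO reads per library depth was 16.3, with a 95% interval of 6.72 to 51.3 that covers counting error only (whole-read adjusted p = 0.0241). Of its windows, 53.4% are shared with Olfr286, Olfr288 and Gm44579. Its neighbour Olfr286 was at 9.54, 10.4, 4.12 and 5.42 TPM (change -0.89, unadjusted p = 0.00103), while its neighbour Olfr288 was at 1.85, 1.86, 1.55 and 2.04 TPM, with overlapping genotypes. Olfr1507, on chromosome 14, was at 12.2, 9.31, 3.52 and 4.57 TPM (change -1.17, whole-read adjusted p = 0.0241). Olfr1346, on chromosome 7, was at 4.62, 4.53, 1.25 and 1.45 TPM (change -1.22, whole-read adjusted p = 0.0355). Olfr692, on chromosome 7, was the receptor with the smallest p among those higher, at 3.83, 4.88, 12.7 and 9.35 TPM (change 1.22). Leaving out WT replicate 2 gave changes of -2.02 for Olfr287, -1.34 for Olfr1507, -1.23 for Olfr1346 and 1.36 for Olfr692, with adjusted p from 0.380 to 0.756. Olfr212 and Olfr726 were lower by 1.21 and 1.40 on the log2 scale and passed in neither test. Of 11 trace amine-associated receptors, which sense volatile amines, 2 were higher at an unadjusted p under 0.05 (18.2%, beside 3.21% of all genes). They were Taar6 and Taar7b, at changes of 0.61 and 0.62. In the test on whole reads, 0 of the 11 were higher or lower at an unadjusted p under 0.05.

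Some macrophage markers were higher in cKO. Of 14 macrophage markers, 4 were higher (28.6%) and 0 lower at an unadjusted p under 0.05, beside 3.21% of all genes higher, and the median was 0.18. Lyz2, lysozyme of myeloid cells and glands, was at 85.7, 77.6, 126 and 127 TPM (change 0.69, limma adjusted p = 0.146, and 0.62 without WT replicate 2), with 15.4% of its windows shared with Lyz1. Tyrobp, a signalling adaptor of myeloid receptors, was at 25.1, 21.3, 39.7 and 52.3 TPM (change 1.00). Aif1 was at 11.1, 11.9, 18 and 18 TPM, and Fcer1g was at 31.3, 39.5, 45.1 and 56.1 TPM. The defining markers Cd68 and Csf1r had overlapping genotypes at changes of 0.09 and 0.12. The count higher was 3 to 5 when each early library was left out. Of 17 neutrophil markers, 0 were higher or lower at an unadjusted p under 0.05, and their median of 0.30 became -0.034 without WT replicate 1. Of 7 lymphocyte markers 0 were either, and their median of 0.24 became -0.078 without WT replicate 2. Gland markers had 2 higher of 21 (9.52%), and their median of 0.21 became -0.15 without WT replicate 2. Of 4 erythroid markers, with a median of 0.42, 1 was higher (25%, beside 3.21% of all genes), Alas2, and 0 were lower. The genotypes did not overlap in 3 with cKO above WT (75%, beside 19.6% of all genes). These shares rest on 4 genes. Of 18 fibroblast, bone and vessel markers and 12 of olfactory ensheathing glia 0 were either. Their medians of 0.074 and -0.12 became 0.23 and 0.075 without WT replicate 1, and -0.13 and -0.31 without WT replicate 2.

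Of the translation machinery, ribosomal protein genes were slightly higher as a group. Of 78 tested, 76 changes were above 0 with a median of 0.17, and the genotypes did not overlap in 44, with cKO above WT, beside 19.6% of all genes. In the reported fit of all 8 libraries, 0 had an unadjusted p under 0.05. The count higher was 2 with a replicate block, 2 in the test on whole reads and 5 with the 4 early libraries fitted alone. Their summed TPM was 43941, 42918, 46567 and 46430, so that both cKO libraries were above both WT libraries. Rplp1 was at 1599, 1522, 1777 and 1729 TPM. Translation factors (50 genes) and CCR4-NOT and other decay factors (20 genes), which shorten and remove mRNA tails and caps, had 0 genes at an unadjusted p under 0.05 and medians of 0.017 and -0.043.

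Genes listed as replication-dependent histones had 8 higher (13.8%, beside 3.21% of all genes) and 1 lower (1.72%, beside 3.42%) of 58. Their median was 0.21. The mRNAs of this class are short and made in dividing cells. The count of 8 moved under several settings. It was 1 with TPM as deposited (median 0.16), 2 with quantile normalization (median 0.15), 2 without a mean-variance trend and 17 with a replicate block. It was 0 without WT replicate 1 or without cKO replicate 2, 14 without WT replicate 2 and 15 without cKO replicate 1. The member with the smallest p, Hist2h2be, was 1 of 6 with a change below 0, at 567, 602, 386 and 444 TPM (change -0.44). Whether Hist2h2be and the other listed genes were made in dividing cells here was not tested. Hist1h3g was at 70.0, 80.4, 86.7 and 119 TPM (change 0.49). Copies of these genes are nearly identical, so the level of a single member is uncertain.

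Of genes of protein export and folding, few had a small p. Of 48 genes of ER translocation and vesicle coats, 1 was higher (2.08%, beside 3.21% of all genes) and 3 were lower (6.25%, beside 3.42%). Their median of 0.021 became 0.067 without WT replicate 1 and -0.042 without cKO replicate 1. Of 32 ER chaperone and unfolded protein response genes 0 were higher or lower. Their median of -0.081 became -0.17 without cKO replicate 1 and -0.16 without WT replicate 2. Of 9 receptor export helpers 1 was higher (11.1%). The last was Reep6, at 51.2, 56.4, 66.4 and 71.8 TPM (change 0.41). Immediate early genes, which respond to activity and handling, had 3 higher (15.8%, beside 3.21% of all genes) and 0 lower of 19, with Jund at 157, 182, 229 and 233 TPM (change 0.51) and Nr4a1 at 14.6, 14.9, 21.2 and 19.1 TPM (change 0.48).

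The sexes of the mice are not in the labels. Xist was at 3.37, 2.75, 1.08 and 1.75 TPM and the Y-linked Ddx3y at 10.6, 8.30, 14.4 and 14.0 TPM, so that transcripts of both kinds were present in all 4 libraries. The part of this difference in the results above was not tested.

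**Figure D4:**
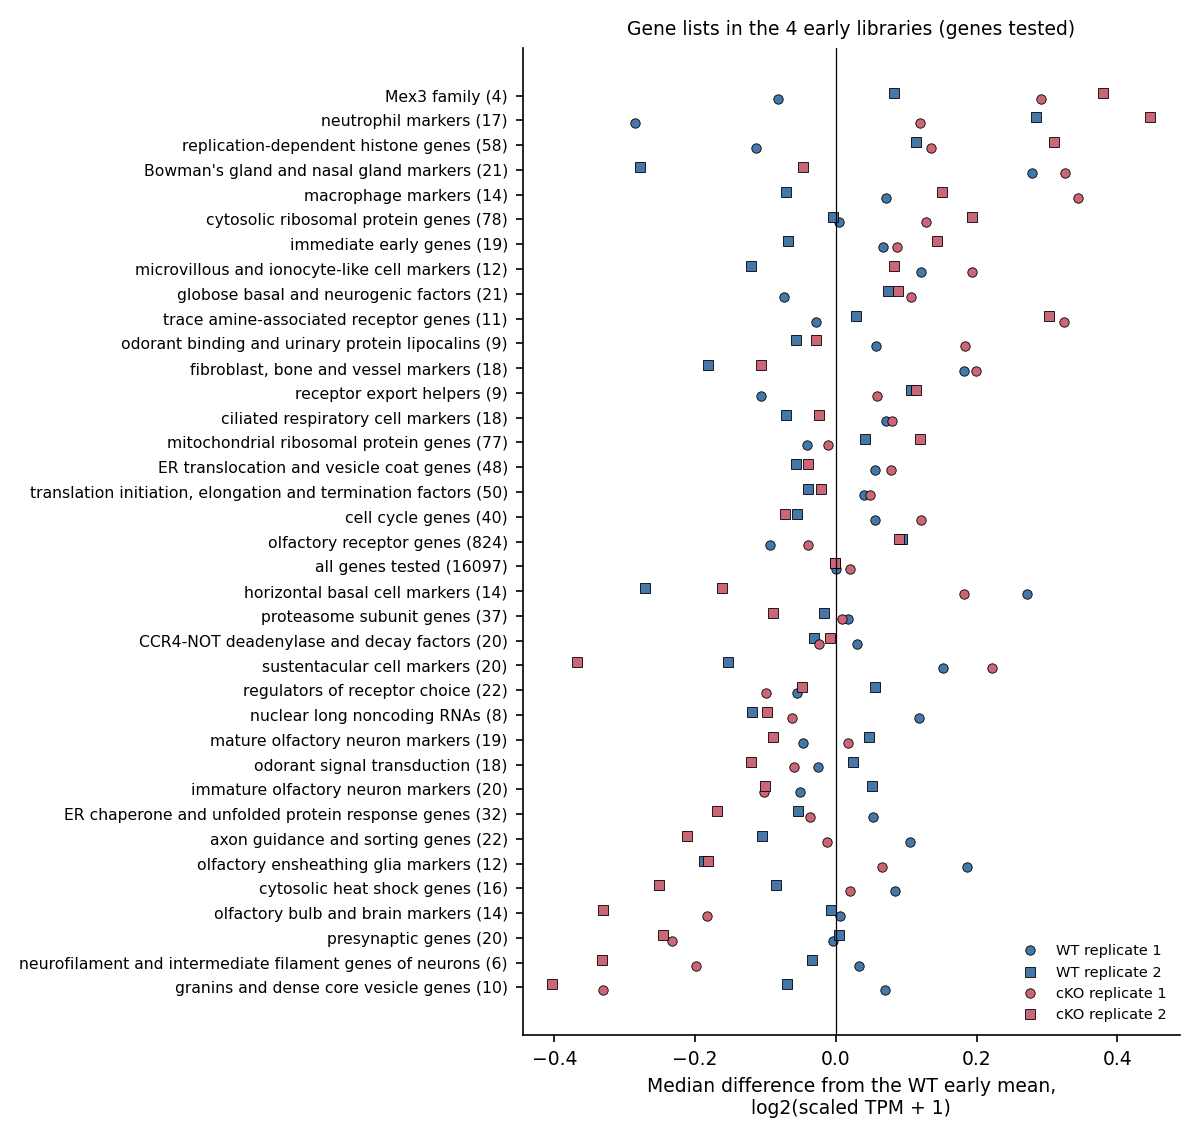
Gene lists in the 4 early libraries. The x axis is the median, over a list's tested genes, of the library's difference from the WT early mean on log2(scaled TPM + 1), and the number of genes is in parentheses. Blue is WT, red cKO, circles replicate 1 and squares replicate 2. Both cKO points lie to the left of both WT points for granin, presynaptic, neurofilament, odorant signal transduction, immature neuron and olfactory bulb and brain lists. Both lie to the right for ribosomal protein genes and some other lists, among them macrophage and globose basal genes. Gland, sustentacular and horizontal basal markers separate replicate 1 from replicate 2.

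The same genes were read in the late polysomes. Library names place these in the same lysates, so the fractions are not independent replicates of the genotype. The fit had no term for the lysate, so early, late and interaction p-values do not allow for this pairing. Mex3a changed by -2.80 in late against -2.55 in early polysomes, Nefl by -1.67 against -1.86, and Mup4 by 1.55 against 1.92. Of the 16097 genes, 1 passed an interaction of genotype and fraction (0.00621%), Mir6541, on 1 read in each cKO early library. At an unadjusted p under 0.05 there were 451 (2.8%). Among the named genes, Stmn4 changed by 0.59 in early and 0.13 in late polysomes (interaction unadjusted p = 0.0146). Olfr212 changed by -1.21 and -0.25 (0.00916) and Sbpl by -1.26 and -0.38 (0.0145). These genes were chosen on their early change, and none of the 3 passed after adjustment. Granin genes had a median of -0.37 in early and -0.15 in late polysomes, presynaptic genes -0.21 and -0.28, and ribosomal protein genes 0.17 and 0.015. Of these lists 0, 1 and 0 genes had an interaction at an unadjusted p under 0.05.

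**Figure D5:**
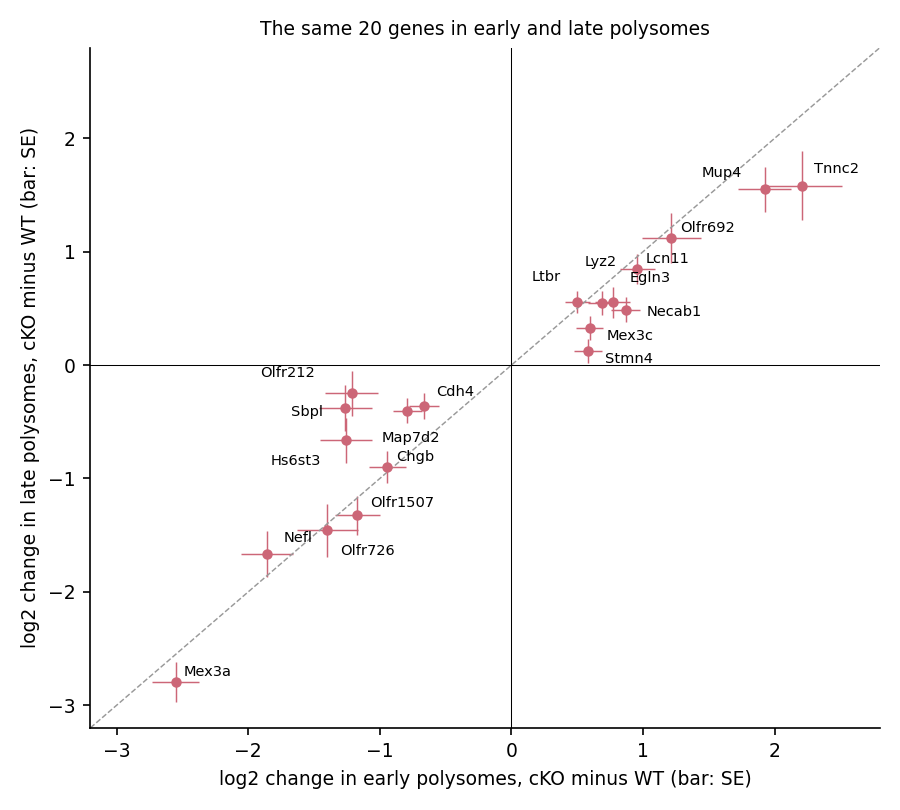
Log2 change in late against early polysomes, cKO minus WT, for the 20 genes of the plot by library. Bars are standard errors from limma and the dashed line marks equal change. The genes were chosen on the x axis. Stmn4 and Olfr212 lie nearest to 0 on the y axis, at 0.13 and -0.25.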

How the data were processed

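The 8 libraries, 2 per genotype and fraction, were made with a stranded low-input total RNA kit, per the labels. The authors deposited TPM for 21765 gene symbols. The submitters' processing notes name FastQC, cutadapt, STAR, DESeq2 and mm10; the counting method and annotation are not given in the sources used here. The Cre line is not reported here. TPM was scaled by median ratios and put on the log2(scaled TPM + 1) scale. Tests used limma 3.58.1 (R 4.3.3) for genes with a mean TPM of at least 1, with all 4 groups fitted together and a mean-variance trend. Whole reads were inferred from TPM steps for 19783 of 19783 genes above 0 in at least 2 libraries (tolerance 0.001 reads). Both tests were checked on simulated libraries drawn independently, with changes only in genes above a floor of reads. Shared lysates and changes in genes with few reads were not part of that check. The genes named are Mex3a, all called genes, the 10 higher and 10 lower with the smallest p (mean of at least 10 reads, scaled TPM of at least 5 in a genotype, genotypes not overlapping, and no placeholder symbol such as a Rik clone name), and up to 3 members of each list by p and 2 by level; others were named after their values were seen. Members and lists were chosen with earlier results of these data known. Positions came from GENCODE M21 on GRCm38 and figures from matplotlib 3.10.9.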

Additional observations from a re-analysis of the deposited data

Results flagged for a closer look

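Mir6541 differed between fractions in its change with genotype (interaction in limma, adjusted p = 0.000929). It had 1 read in each cKO early library and 0 in each WT early library, and the test on whole reads gave no interaction call.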

How the results depend on the processing

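The early count of 7 genes moved to 11 when low genes were kept, to 2 above a mean TPM of 5, to 4 above a mean of 10 reads, to 0 when only the 4 early libraries were fitted (1039 genes at an unadjusted p under 0.05), and to 12 on whole reads with voom. Leaving out 1 library at a time gave 0 to 9 genes, 0 without WT early replicate 1 (588 unadjusted), 4 without WT early replicate 2, 2 without cKO early replicate 1 and 4 without cKO early replicate 2. A lone library was assumed to vary like the other groups. For the interaction, the count of 1 moved to 6 when low genes were kept, to 2 when the trend was dropped, and to 0 above a mean TPM of 5 (312 unadjusted), above 10 reads (431) and on whole reads (396). It was 1 to 7 with 1 library left out. Mex3a was lower in each setting run, at -2.81 to -2.30 with 1 library left out. It missed the threshold when only the 4 early libraries were fitted (-2.56, adjusted p = 0.0843) and without WT early replicate 1 (-2.68, adjusted p = 0.0791). Filters and omissions change the genes or samples tested by construction, and otherwise the cause was not tested. Genes with few reads, the microRNA entries among them, were not resolvable at this depth.

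WT and cKO libraries of the same replicate number share only that number, while early and late libraries of the same genotype and number share a lysate by their names. Deviations of the early WT and cKO libraries from their group means, matched by number, correlated at 0.332 across 16097 genes. A replicate block gave 7 early calls, losing Nefl and 5430401F13Rik and gaining Chgb and Sbpl, an interaction count of 1, and -2.55 for Mex3a.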
